A study of Mus musculus with 30 samples.

Results

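Skeletal muscle fibre genes were followed through 15 arrays of subcutaneous fat, with 15 arrays of liver for contrast. The 38 genes encode proteins of the contractile apparatus and the energy supply of muscle fibres. They were found by gene symbol in the platform annotation and were set apart into 14 genes of fast fibres, 7 of slow fibres and 17 shared by both fibre types. Of these, 36 had at least 1 probe, 60 probes in all, among the 46643 probes and 19406 named genes of the array. Myh2, the myosin heavy chain of fast oxidative fibres, and Cacna1s, the voltage sensor of the muscle calcium release complex, had no probe.

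All mice were males aged 4 months that had been fasted overnight before tissue was taken. Wild type (WT) mice carried the intact growth hormone receptor. In the other groups the receptor was cut short at amino acid 569 or at amino acid 391, carried a mutated Box1 region (the membrane-near stretch through which the receptor engages its kinase), or was removed (KO). Each genotype is represented in each tissue by 3 Illumina bead arrays, hybridised with biotin-labelled material from total RNA of frozen tissue. The labels do not say whether the 3 arrays of a group came from separate mice, so p-values here reflect array-to-array spread that could be technical. Replicate numbers follow the order of deposit and are names only. The labels call the mutants transgenic mice and say nothing more of how the receptor was altered.

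A skeletal muscle fibre shortens when calcium, released from the sarcoplasmic reticulum through the ryanodine receptor, binds troponin on the thin filament and lets myosin of the thick filament pull on actin. Fast and slow fibres use different genes for many of these parts: each has its own myosin heavy chain, its own set of troponin subunits and its own calsequestrin. Fast fibres draw mainly on glycogen and phosphocreatine, while slow fibres rely on oxidation and are rich in myoglobin. Fat cells do not build sarcomeres. In a bulk sample, fewer cells of a type and less RNA per cell cannot be told apart.

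The deposited value is a ratio: every probe is expressed relative to its middle array among the 15 of the tissue, which therefore has the value 1. A ratio of 2 is 1 on the log2 scale. Such ratios hold no absolute level, so values can be compared between arrays for 1 gene but not between genes, and signal over background is unknown. Slides are shared in part: WT and 569 fat lay on 1 slide of 6 arrays, 391 and KO fat on another, and Box1 fat with Box1 liver on a slide of their own. Slide and genotype can therefore be separated for 569 against WT and for KO against 391, and cannot be told apart for 391, Box1 or KO against WT.

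The promoters of 30 of the 38 genes are in the RefSeq table for GRCm38.p6, and 4 are shown because they belong to genes that part ways in the values that follow: the fast myosin gene Myh4, the actin gene Acta1, and the slow-fibre genes Myoz2 and Tnnc1. Each run holds the 250 bases before the annotated transcription start, 5′ to 3′ on the gene's own strand. Capitals mark matches, searched on both strands. The E-box, bound by myogenic regulators, was searched as CAGCTG. The MCAT element, bound by TEAD factors, was searched as CATTCC. The MEF2 box and the CArG box of serum response factor were searched by their consensus, and the TATA element as TATAAA. The sequences come from RefSeq.
Myh4, chr11:67237562-67237811, plus strand: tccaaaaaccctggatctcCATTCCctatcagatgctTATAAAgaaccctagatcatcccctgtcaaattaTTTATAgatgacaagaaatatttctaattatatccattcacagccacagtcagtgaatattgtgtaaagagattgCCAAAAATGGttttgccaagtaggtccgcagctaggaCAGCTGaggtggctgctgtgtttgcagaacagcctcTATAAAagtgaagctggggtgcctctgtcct
Acta1, chr8:123894776-123895025, minus strand: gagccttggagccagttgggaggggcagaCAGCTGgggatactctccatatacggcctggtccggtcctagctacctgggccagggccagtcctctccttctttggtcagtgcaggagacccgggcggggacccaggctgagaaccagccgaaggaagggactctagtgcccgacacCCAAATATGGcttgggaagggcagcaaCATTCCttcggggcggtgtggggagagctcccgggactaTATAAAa
Myoz2, chr3:123034988-123035237, minus strand: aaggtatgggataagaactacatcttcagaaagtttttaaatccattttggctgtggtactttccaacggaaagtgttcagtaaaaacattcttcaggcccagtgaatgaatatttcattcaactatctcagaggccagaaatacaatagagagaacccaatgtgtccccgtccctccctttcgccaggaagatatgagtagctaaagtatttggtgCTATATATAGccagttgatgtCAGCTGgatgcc
Tnnc1, chr14:31208062-31208311, plus strand: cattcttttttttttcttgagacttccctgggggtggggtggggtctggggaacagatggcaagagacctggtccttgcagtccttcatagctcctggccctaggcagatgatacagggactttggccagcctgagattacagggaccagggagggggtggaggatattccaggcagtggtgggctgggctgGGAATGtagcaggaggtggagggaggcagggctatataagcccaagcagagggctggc

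The table holds 32851 promoters of 27025 genes. Of the members, 5 have several promoters, and 1 was used for each. In windows from 250 bases before to 50 after the start, CAGCTG occurred in 16 of the 30 member promoters (53.3%), against 16.1% of all 27025 genes in the table. CATTCC occurred in 12 of the 30 (40.0%), against 14.6% of all. The MEF2 box was found in 2 members, Myoz2 and Ttn (6.67% against 0.566%), and the CArG box in 2, Myh4 and Acta1 (6.67% against 1.57%). TATAAA was present in 6 (20.0% against 14.2%). At least 1 of the first 4 motifs was found in 22 of 30 member promoters, 73.3%, and in 29.8% of all. None of the 42 matches in member promoters overlapped another. A match is a run of letters, not a measured site. Myh4 and Acta1 each carry 4 of the 5 motifs, whereas the printed Tnnc1 run carries a single MCAT match, on the other strand.

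Muscle transcripts in fat varied far more between arrays than transcripts in general. The SD of the log2 ratio over the 15 fat arrays had a median of 1.37 over the 60 member probes and of 0.155 over all probes. For 35 of the 60 member probes the SD lay above 1.14, the 99th percentile of all probes. By the most variable probe of each gene this held for 29 of the 36 genes, a choice that raises the count. Most of this spread lay within genotypes: the share of a gene's sum of squares between genotypes had a median of 31.6% over the members and 29.8% over all probes. In liver the same probes had a median SD of 0.244, against 0.136 for all probes.

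In 4 fat arrays more than 18 of the 36 genes exceeded a ratio of 2: 26 in 569 replicate 1, 30 in 569 replicate 3, 32 in Box1 replicate 3 and 24 in KO replicate 2. These arrays were singled out from the values, and results are given with and without them. In the other 11 arrays the count was 18 in 391 replicate 3, 14 in KO replicate 3, 12 in 391 replicate 1, 1 in 391 replicate 2 and 0 in the rest. The median log2 ratio over the 36 genes was -0.63, -0.90 and -0.80 in WT. It was 3.34, -1.12 and 4.94 in 569, 0.81, 0.00 and 0.97 in 391, -0.54, -0.54 and 4.13 in Box1, and -0.33, 2.57 and 0.54 in KO. So 569 and Box1 held both very low and very high arrays, WT held only low ones, and the 391 arrays lay between.

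**Figure D1:**
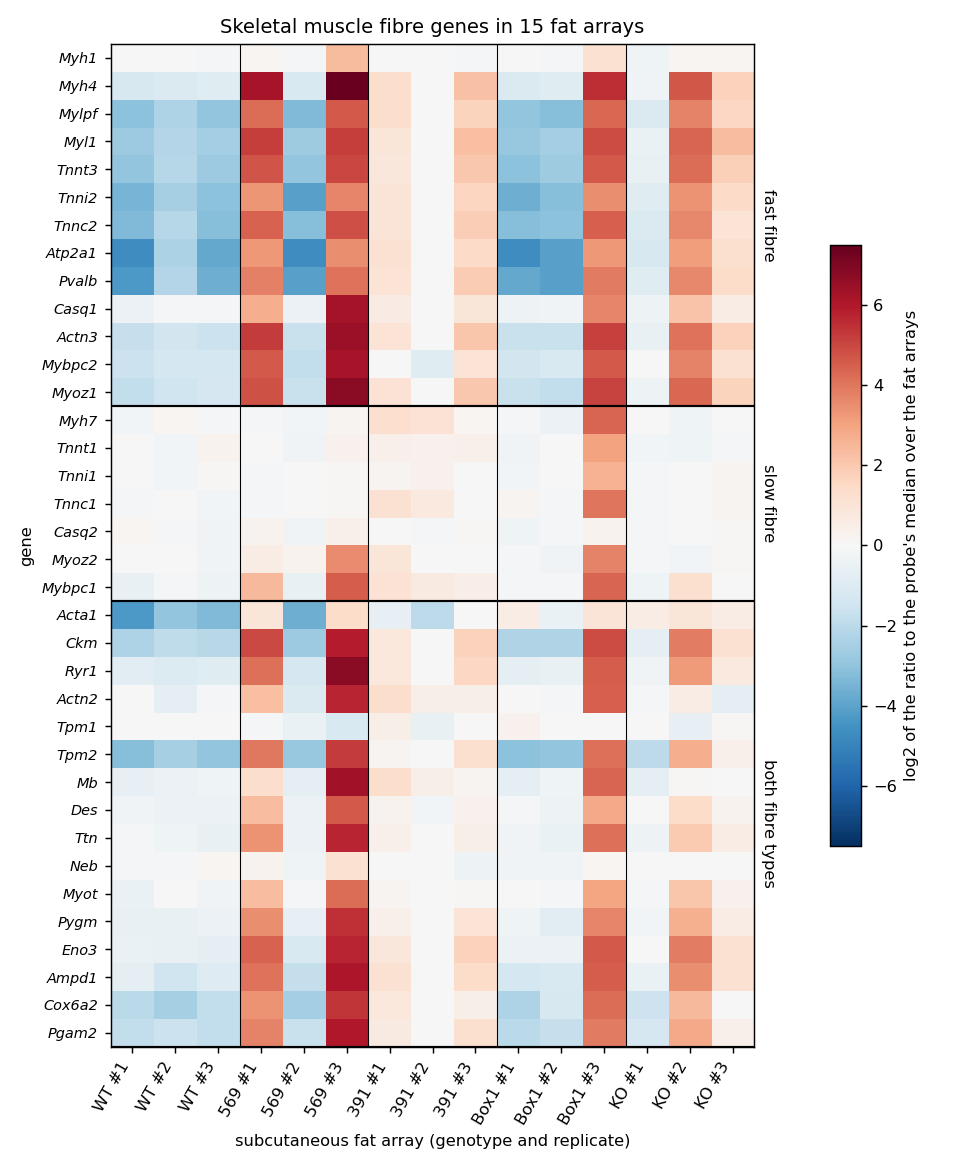
Log2 ratio of each of 36 muscle fibre genes (rows, grouped by fibre type) in each of 15 subcutaneous fat arrays (columns, by genotype and replicate), relative to that probe's median over the fat arrays; red is above and blue below. The 4 columns 569 #1, 569 #3, Box1 #3 and KO #2 are red over most of the fast and shared genes. Among the exceptions, Myh1 has a ratio of 1.09 in 569 #1 and KO #2, and Tpm1 has 0.45 in 569 #3. Of the slow genes Myh7, Tnnt1, Tnni1 and Tnnc1 are strongly red in Box1 #3 alone.

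The thick filament is built of myosin heavy and light chains and myosin-binding protein C. Myh4, the heavy chain of the fastest fibres, had ratios of 0.43, 0.48 and 0.53 in WT, 71.2, 0.46 and 168.6 in 569, 2.48, 1 and 4.68 in 391, 0.47, 0.54 and 46.4 in Box1, and 0.84, 25.0 and 3.29 in KO. Its 3 WT arrays lay together with 569 replicate 2 and with Box1 replicates 1 and 2, and the 4 highest values were those of the 4 arrays named above. Myh7, the heavy chain of slow fibres, had ratios of 0.87, 1.10 and 0.94 in WT, 0.92, 0.88 and 1.16 in 569, 2.35, 2.15 and 1.10 in 391, 0.94, 0.73 and 20.3 in Box1, and 1, 0.79 and 1 in KO. It was thus high in Box1 replicate 3, where Myh4 was also high, and near 1 in the 3 other arrays rich in Myh4. A second Myh7 probe stayed at or below 1.16 and had a correlation of 0.27 with the first.

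Myh1, the heavy chain of fast glycolytic fibres, had the smallest SD of the thick filament genes, 0.675 on the log2 scale, by its only probe. Its ratios were 0.98, 1.01 and 0.96 in WT, 1.09, 0.90 and 5.13 in 569, 1.03, 0.98 and 0.95 in 391, 1, 0.96 and 2.21 in Box1, and 0.80, 1.09 and 1.10 in KO. Only 569 replicate 3 and Box1 replicate 3 rose above 2. Myl1, the fast essential light chain, had the largest SD of this group, 3.20. Its ratios were 0.15, 0.22 and 0.17 in WT, 35.9, 0.16 and 37.0 in 569, 1.84, 1 and 4.85 in 391, 0.14, 0.17 and 29.8 in Box1, and 0.71, 20.4 and 5.03 in KO. By this probe 569 replicates 1 and 3 were nearly level. A second Myl1 probe was 6.47 and 63.5 in them, 11.2 in Box1 replicate 3 and 4.32 in KO replicate 2.

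Mylpf, the fast regulatory light chain, ran between 0.12 and 0.20 in WT and was 18.6, 0.10 and 24.2 in 569, 2.5, 1 and 3.20 in 391, 0.13, 0.11 and 19.5 in Box1, and 0.47, 13.4 and 2.88 in KO. The lowest 391 or KO array, 0.47, stood above all 3 WT arrays. Mybpc2, the fast myosin-binding protein C, had ratios of 0.33, 0.40 and 0.40 in WT, 24.2, 0.28 and 73.7 in 569, 1, 0.53 and 2.04 in 391, 0.38, 0.45 and 24.4 in Box1, and 1.02, 13.3 and 2.17 in KO. Its slow counterpart Mybpc1 had ratios of 0.68, 0.96 and 0.77 in WT, 5.48, 0.67 and 23.6 in 569, 2.10, 1.61 and 1.42 in 391, 0.89, 0.90 and 20.6 in Box1, and 0.79, 2.33 and 1 in KO. Mybpc1 had the highest correlation of the 7 slow-fibre genes with the median of the other members, 0.951 over the 15 arrays. That is its most variable probe, and the other 2 Mybpc1 probes stayed at or below 1.41.

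The thin filament carries actin, tropomyosin, nebulin and the 3 troponin subunits that sense calcium. Tnni2, the fast inhibitory troponin subunit, had ratios of 0.09, 0.18 and 0.12 in WT, 10.1, 0.06 and 12.8 in 569, 1.97, 1 and 3.09 in 391, 0.08, 0.11 and 11.1 in Box1, and 0.54, 10.2 and 2.75 in KO. Tnni1, the slow inhibitory subunit, had ratios of 1, 0.87 and 1.05 in WT, 0.91, 1.03 and 1.07 in 569, 1.14, 1.24 and 0.99 in 391, 0.87, 0.98 and 6.03 in Box1, and 0.92, 0.99 and 1.13 in KO. The fast subunit was nearly level in the 4 high arrays, and the slow one left the range of 0.87 to 1.24 in Box1 replicate 3 alone.

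Tnnt3, the fast tropomyosin-binding troponin subunit, had the largest SD of the thin filament genes, 3.14, with ratios of 0.13, 0.23 and 0.15 in WT, 26.3, 0.13 and 32.8 in 569, 1.80, 1 and 4.10 in 391, 0.12, 0.16 and 24.5 in Box1, and 0.67, 17.9 and 3.51 in KO. Tnnt1, its slow form, had ratios of 1, 0.88 and 1.21 in WT, 1.02, 0.84 and 1.23 in 569, 1.32, 1.26 and 1.28 in 391, 0.82, 1 and 8.07 in Box1, and 0.88, 0.79 and 0.94 in KO. All 3 391 arrays exceeded the highest WT array for Tnnt1, but the 2 groups lay close together, 1.21 being the highest WT and 1.26 the lowest 391 value. Tnnc2, the fast calcium-binding subunit, had ratios of 0.10, 0.23 and 0.11 in WT, 21.1, 0.11 and 28.7 in 569, 1.95, 1 and 3.56 in 391, 0.11, 0.12 and 22.7 in Box1, and 0.48, 11.9 and 2.03 in KO. Tnnc1, the slow and cardiac form, had ratios of 0.92, 0.99 and 0.88 in WT, 0.95, 1 and 1.08 in 569, 2.18, 1.67 and 1 in 391, 1.15, 0.96 and 16.4 in Box1, and 0.91, 1 and 1.17 in KO. For each of the 3 subunits the slow gene was lifted in Box1 replicate 3 together with the fast one, and in 569 replicate 3, where the fast genes reached their highest values, it stayed at or below 1.23.

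Neb, which encodes the giant ruler protein nebulin, varied least among the thin filament genes, with an SD of 0.359 and ratios between 0.76 and 2.17, the highest in 569 replicate 3. It has only 1 probe, so a steady transcript and a probe that responds little cannot be told apart. Tpm1, a tropomyosin that smooth muscle and other cells also make, ran against the rest by its more variable probe. That probe had ratios of 0.97, 1.03 and 1 in WT, 0.92, 0.70 and 0.45 in 569, 1.33, 0.67 and 1.03 in 391, 1.26, 1.03 and 1.01 in Box1, and 0.97, 0.66 and 1.05 in KO. A second Tpm1 probe stayed between 0.76 and 1.19, with 1.14 in 569 replicate 3, and had a correlation of -0.18 with the first. By the first probe the correlation of Tpm1 with the median of the other members was -0.46, the only negative one. Tpm2, the other tropomyosin of the list, ran with them, from 0.11 in a WT array to 37.4 in 569 replicate 3.

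At the Z disc, where thin filaments of neighbouring sarcomeres meet, Myoz1 showed the largest SD, 2.94. Myoz1 is the calsarcin of fast fibres, and its ratios were 0.28, 0.36 and 0.41 in WT, 27.1, 0.32 and 111.1 in 569, 2.08, 1 and 4.13 in 391, 0.31, 0.28 and 34.0 in Box1, and 0.77, 19.7 and 3.15 in KO. Myoz2, the calsarcin of slow fibres and heart, had the smallest, 1.29, with ratios of 1, 0.99 and 0.85 in WT, 1.45, 1.22 and 11.7 in 569, 1.86, 1 and 0.97 in 391, 0.92, 0.82 and 12.9 in Box1, and 0.94, 0.88 and 1.08 in KO. Unlike the slow troponins, Myoz2 was high in both 569 replicate 3 and Box1 replicate 3. Its second probe stayed at or below 1.14. By the most variable probe of each gene, the highest ratios of Actn3, Actn2, Ttn, Des and Myot were 89.6, 53.5, 53.4, 24.2 and 17.9, all in 569 replicate 3. A second Actn3 probe reached 117.9 in that array. The second probes of Actn2 and Myot stayed at or below 2.09 and 1.29.

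Among the calcium handling genes the fast members varied widely, while the slow Casq2 was only 1.21 in Box1 replicate 3, unlike the slow troponins. Atp2a1, the calcium pump of fast fibres, had ratios of 0.04, 0.19 and 0.07 in WT, 9.64, 0.04 and 11.4 in 569, 2.25, 1 and 2.75 in 391, 0.04, 0.06 and 9.39 in Box1, and 0.44, 8.93 and 2.30 in KO. Pvalb, the calcium buffer of fast fibres, had the largest SD of all 36 genes, 3.27, and ran from 0.05 in a WT array to 16.9 in 569 replicate 3. For both genes every 391 and KO array lay above every WT array. Casq1, the calsequestrin of fast fibres, had ratios of 0.73, 0.89 and 0.95 in WT, 6.64, 0.74 and 75.9 in 569, 1.51, 1 and 1.90 in 391, 0.77, 0.83 and 12.8 in Box1, and 0.78, 4.42 and 1.46 in KO. Casq2, the calsequestrin of slow fibres and heart, had ratios of 1.10, 0.94 and 0.85 in WT, 1.19, 0.82 and 1.31 in 569, 1, 0.89 and 1.06 in 391, 0.81, 0.89 and 1.21 in Box1, and 0.93, 1.03 and 1.06 in KO. By its only probe Casq2 thus never reached a ratio of 2, and its SD, 0.212, was the smallest of all 36. Ryr1, the calcium release channel, reached 107.6 in 569 replicate 3 against 17.8 in replicate 1.

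The energy genes all peaked in 569 replicate 3. Ckm, the muscle creatine kinase, had ratios of 0.20, 0.27 and 0.24 in WT, 30.9, 0.15 and 58.8 in 569, 1.70, 1 and 3.37 in 391, 0.21, 0.21 and 29.7 in Box1, and 0.59, 14.4 and 2.23 in KO. Mb, the oxygen store myoglobin, had ratios of 0.66, 0.74 and 0.79 in WT, 2.47, 0.63 and 79.2 in 569, 2.53, 1.38 and 1.16 in 391, 0.63, 0.80 and 20.8 in Box1, and 0.62, 1.05 and 1 in KO. Mb therefore set 569 replicate 3 and Box1 replicate 3 apart from the other 2 high arrays: KO replicate 2, with Ckm at 14.4, had Mb at 1.05. Pygm, the muscle glycogen phosphorylase, had the smallest SD of the energy genes, 1.96, and ran from 0.56 to 44.2. The highest ratios of Ampd1, Pgam2, Eno3 and Cox6a2 were 65.6, 64.3, 51.6 and 40.7.

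By the chosen probes, fast and slow genes thus differed in which arrays were high. The size of a rise cannot be compared between genes. Signal over background is unknown, so a slow gene near 1 cannot be told from one too weak to measure. All 13 measured fast-fibre genes were highest in 569 replicate 3, as were 15 of the 16 shared genes. Of the 7 slow-fibre genes Mybpc1 and Casq2 peaked in 569 replicate 3 and the other 5 in Box1 replicate 3. The median log2 ratio of the fast genes was 4.40 in 569 replicate 1, 5.03 in 569 replicate 3, 4.50 in Box1 replicate 3 and 3.73 in KO replicate 2. That of the slow genes was 0.03, 0.30, 3.69 and -0.01 in the same arrays. Genes above a ratio of 2 were, for the fast fibres, 12, 13, 13 and 12 of 13, and for the slow fibres 1, 2, 6 and 1 of 7. In KO replicate 2, Tnnt1, Tnni1 and Tnnc1 were 0.79, 0.99 and 1.

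**Figure D2:**
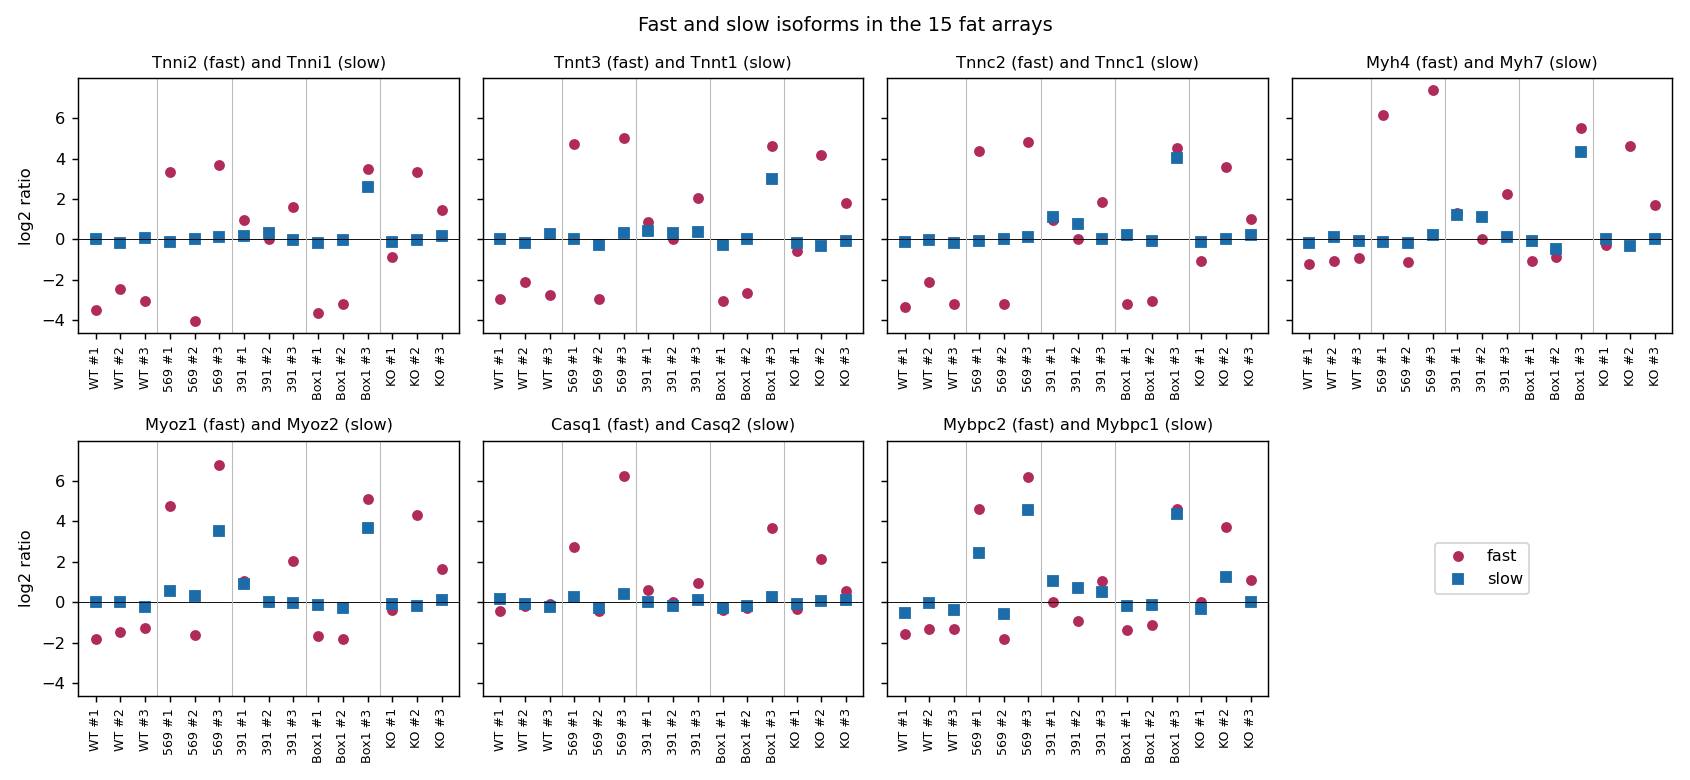
Log2 ratio of the fast (circles) and slow (squares) gene of 7 isoform pairs in the 15 fat arrays, in the order WT, 569, 391, Box1 and KO. In Tnni, Tnnt, Tnnc and Myh pairs the slow gene leaves the zero line clearly in Box1 #3, reaching ratios of 6.03, 8.07, 16.4 and 20.3, while the fast gene is high in 569 #1, 569 #3, Box1 #3 and KO #2.

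The high arrays also differed among themselves gene by gene. The ratio in 569 replicate 3 over that in 569 replicate 1 had a median of 2.37 over the 36 genes and ran from 0.489 for Tpm1 to 32.1 for Mb. Among the fast genes it had a median of 1.36, from 1.03 for the chosen probe of Myl1, whose second probe was far from level, to 11.4 for Casq1, and among the genes of energy supply a median of 3.90. Box1 replicate 3 over 569 replicate 3 had a median of 0.491, from 0.168 for Casq1 to 17.5 for Myh7. Atp2a1 and Tnni2 lay between 8.93 and 12.8 in all 4 high arrays, while Myh4, Casq1 and Mb spread widely among them.

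**Figure D3:**
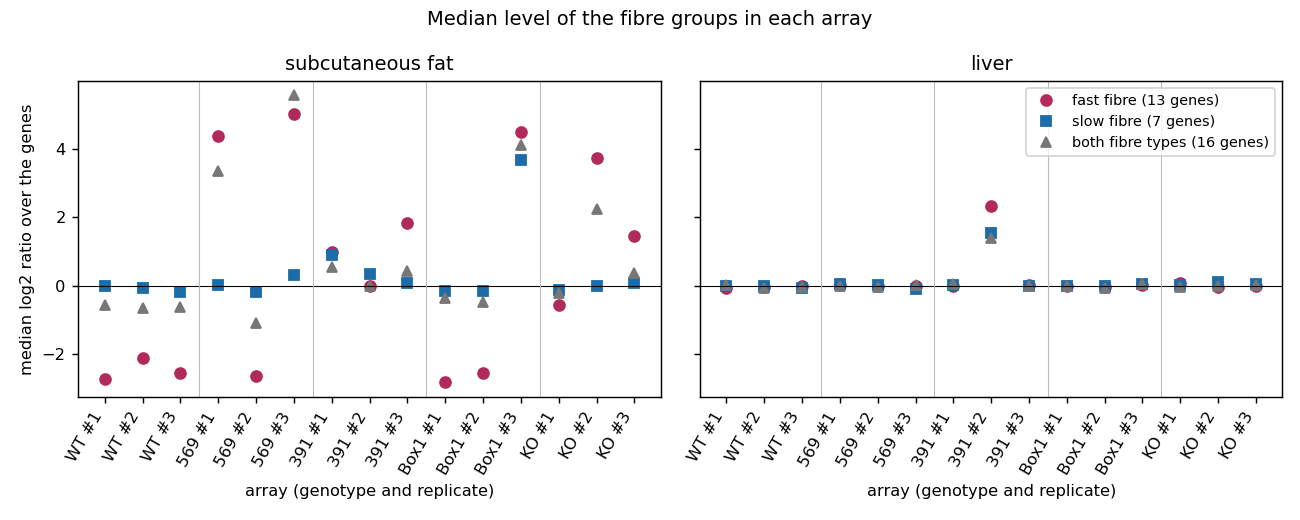
Median log2 ratio over the fast, slow and shared fibre genes in each array of fat (left) and liver (right). In fat the fast genes span -2.84 to 5.03, the slow genes stay between -0.18 and 0.90 apart from 3.69 in Box1 #3, and in liver only 391 #2 leaves the zero line, with the fast genes at 2.35.

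Each mutant was then compared with WT in fat, which asks whether loss of parts of the receptor changed the amount of these transcripts. For 569 minus WT the median over the 36 genes was 3.44, with 34 genes above 0, against -0.028 over all genes. For 391 it was 1.44 (34 genes above 0) against 0.0046, for Box1 1.77 (34 genes) against 0.032, and for KO 2.19 (33 genes) against 0.015. By fibre type, the fast genes had medians of 4.65 in 569, 3.55 in 391, 2.10 in Box1 and 4.06 in KO, and the slow genes 0.12, 0.37, 1.18 and 0.06. By role, the medians in 569 were 4.40 for the thick filament, 4.12 for calcium handling, 3.80 for energy supply, 2.59 for the Z disc and 1.73 for the thin filament. In KO they were 3.04, 2.16, 2.39, 1.05 and 1.69 in the same order.

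No member probe passed limma's test at an adjusted p under 0.05 in any of these 4 comparisons. In 569 against WT 0 of 60 member probes were called, with 0% of all probes called. The count was 0 of 60 for 391 against WT, where 0.0129% of all probes were called, 0 of 60 for Box1 (0.00214%) and 0 of 60 for KO (0%). At an unadjusted p under 0.05, 26 of the 60 member probes passed in 569 against WT, where 8.96% of all probes did. In each of the other comparisons with WT 1 probe passed, that of Acta1, where 4.58%, 4.54% and 6.24% of all probes did for 391, Box1 and KO. The F test for any difference from WT called 0 of 60, with 0.015% of all probes called.

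Single genes had wide errors. Tnni2 differed from WT by 3.99 ± 2.10 (SE, 3 arrays per group) in 569, 3.87 ± 2.10 in 391, 1.88 ± 2.10 in Box1 and 4.31 ± 2.10 in KO on the log2 scale, with limma adjusted p-values of 0.595, 1, 1 and 0.811. Within 569 alone the SD of Tnni2 was 4.37, and in Box1 3.98. Myh4 differed by 5.21 ± 2.16 in 569 (adjusted p = 0.552), 2.24 in 391, 2.25 in Box1 and 3.10 in KO. For Atp2a1 the differences were 4.34 ± 2.27, 4.50, 1.80 and 4.68, and for Mb 2.77 ± 1.53, 1.13, 1.59 and 0.25. Tnnc1 differed by 1.5 ± 0.785 in Box1 and Myh7 by 1.32 ± 0.912, both with an adjusted p of 1, and both genes were near 1 in the other Box1 arrays.

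**Figure D4:**
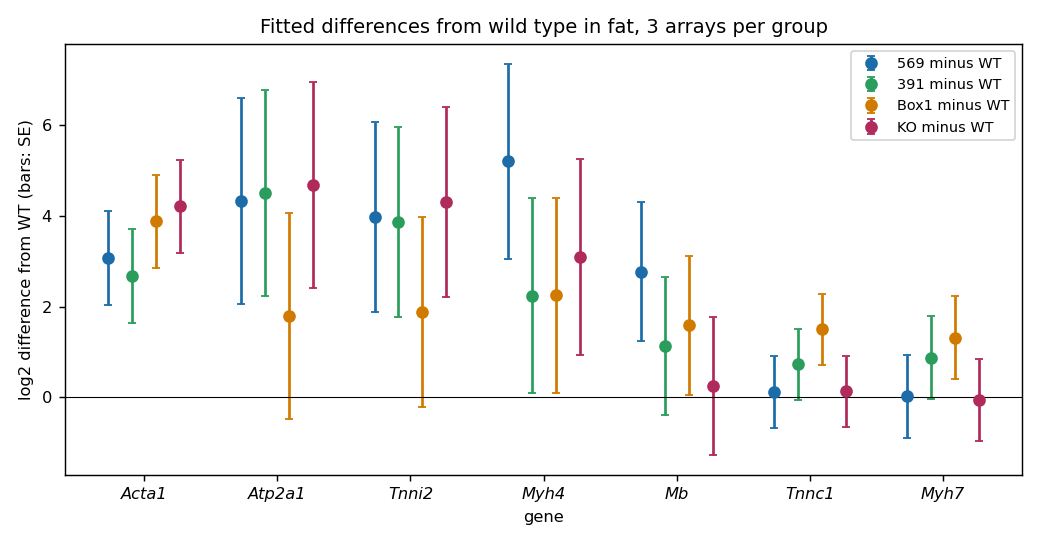
Fitted log2 difference from WT in fat (points) with its standard error (bars) for 7 muscle fibre genes and 4 mutants, 3 arrays per group. Acta1 has the shortest bars relative to its differences, with 4.21 ± 1.03 in KO and 3.88 ± 1.03 in Box1, and for Myh4, Tnni2 and Atp2a1 the standard errors are 2.16, 2.10 and 2.27.

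Single arrays set several of these medians. Without Box1 replicate 3 the median over the members in Box1 minus WT was -0.085 in place of 1.77. Without 569 replicate 2 the 569 median was 5.32, and without 569 replicate 3 it was 2.17. Leaving out KO replicate 2 took the KO median from 2.19 to 1.16. The 391 median stayed between 1.26 and 1.90 when single arrays were left out. Without all 4 high arrays, 569 was represented by replicate 2 alone, whose spread is then assumed to be like that of the other groups, and the median of 569 minus WT was -0.22.

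An ordering of arrays that needs no variance gave a different picture for 391 and KO. Most members rose and fell together over these arrays, so their orderings repeat each other. The counts below are descriptions and carry no test. In 391, 29 of the 36 genes (32 of 60 probes) had all 3 arrays above all 3 WT arrays, where 4.64% of all probes did. In KO the count was 21 of 36 (23 of 60 probes), where 8.46% of all probes did. In 569 it was 1 of 36, Myoz2 (4 of 60 probes, 5.01% of all probes), and in Box1 3 of 36, Acta1, Ryr1 and Eno3 (5 of 60 probes, 6.7%). The reverse order, all arrays below WT, held for 1 of 60 probes in 569 (Tpm1, 5.88% of all probes) and for 0 of 60 in 391 (5.07%), Box1 (3.5%) and KO (4.61%). By fibre type, 12 of 13 fast genes, 3 of 7 slow genes and 14 of 16 shared genes were above WT in 391, and 11, 0 and 10 in KO. By role, 391 lay above WT for all 7 energy genes, 6 of 7 Z disc genes, 4 of 5 calcium genes, 7 of 10 thin filament genes and 5 of 7 thick filament genes. The fast gene missing in 391 was Myh1, and those missing in KO were Myh1 and Casq1. The arrays of 391 and KO shared a slide that held no WT array, so slide and genotype cannot be told apart here.

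Among the other contrasts, 1 lies within a slide. KO minus 391 had a median of 0.33 over the members, with 25 of 36 genes above 0 and 0 of 60 member probes called (0.0172% of all probes), and 0 passed at an unadjusted p under 0.05, where 6.7% of all did. Without KO replicate 2 its median was -0.45, and without KO replicate 1 it was 1.08. Between slides, 391 minus 569 had a median of -1.54 with 0 called (0.00858% of all probes, and 6 of 60 against 12.1% at an unadjusted p under 0.05), and without 569 replicate 3 it was -0.09. KO minus Box1 had a median of 0.17 with 0 called (0%, and 0 of 60 against 2.58% unadjusted), which became -0.45 without KO replicate 2 and 1.73 without Box1 replicate 3. The mean of 391, Box1 and KO minus the mean of WT and 569 had a median of 0.17 and 0 called (0.0193%, and 1 of 60 against 9.11% unadjusted). That median was -0.79 without 569 replicate 2 and 0.76 without 569 replicate 3.

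Acta1, the alpha actin of skeletal muscle, had a pattern unlike that of most other members. Its ratios were 0.05, 0.13 and 0.10 in WT, 1.89, 0.08 and 2.58 in 569, 0.65, 0.26 and 1 in 391, 1.5, 0.72 and 1.94 in Box1, and 1.47, 1.89 and 1.49 in KO. All arrays of 391, Box1 and KO lay above the highest WT array, and the 3 KO arrays lay close together although Mylpf ran from 0.47 to 13.4 in them. In Box1 replicates 1 and 2, where Mylpf was 0.13 and 0.11, Acta1 was 1.5 and 0.72. The share of the sum of squares of Acta1 that lay between genotypes was 63.0%, the highest of the 36 genes. The difference from WT was 3.08 ± 1.03 in 569, 2.67 ± 1.03 in 391, 3.88 ± 1.03 in Box1 and 4.21 ± 1.03 in KO, with limma adjusted p-values of 0.552, 1, 0.952 and 0.420, so none passed. In a fit of the KO and WT arrays alone, Acta1 passed with an adjusted p of 0.0211.

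Acta2, the alpha actin of smooth muscle, is close in sequence to Acta1. Its ratios were 0.40, 0.35 and 0.69 in WT, 0.42, 0.51 and 0.26 in 569, 1, 0.21 and 1.07 in 391, 7.31, 1.58 and 3.03 in Box1, and 4.31, 1.81 and 4.19 in KO. Both actins were higher in all Box1 and KO arrays than in all WT arrays, but the 569 arrays with high Acta1, replicates 1 and 3, had Acta2 at 0.42 and 0.26. Acta1 and Acta2 had a correlation of 0.51 over the 15 arrays and of 0.81 over the 11 without the high ones. With the median of the other members, Acta1 had 0.68 and 0.55, and Acta2 had -0.09 and 0.16. These are descriptions over arrays that share genotype and slide. Of the 10 smooth muscle markers, Myh11, Tagln, Cnn1, Lmod1, Smtn, Actg2 and Myocd stayed between 0.44 and 1.57. Mylk ran from 0.32 to 2.08, its highest in Box1 replicate 1, and Synpo2 from 0.29 to 6.68, its highest in 569 replicate 3. The part of Acta2 in the Acta1 signal was not tested.

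**Figure D5:**
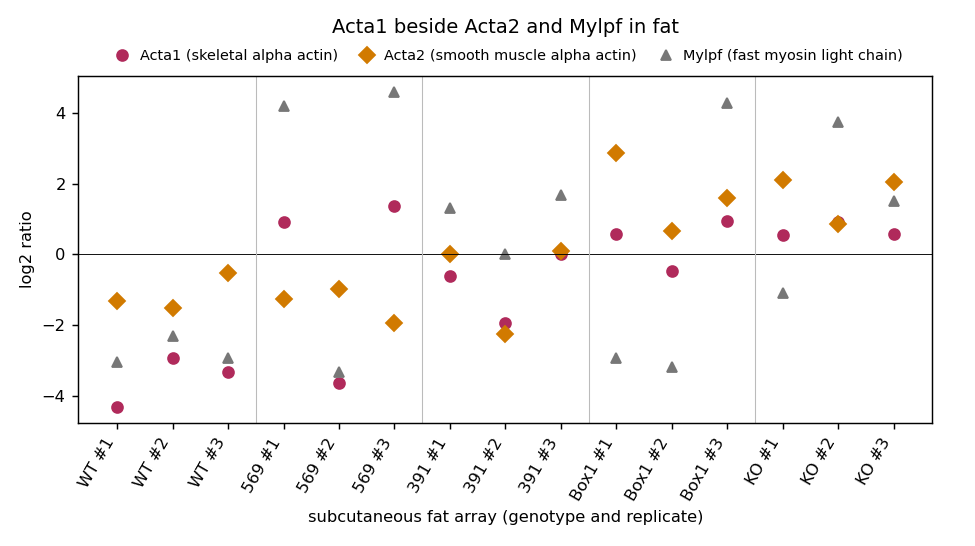
Log2 ratio of Acta1 (circles), Acta2 (diamonds) and Mylpf (triangles) in the 15 fat arrays. In Box1 #1, Box1 #2 and KO #1 Mylpf lies below 0 while Acta2 lies above it, and Acta1 has ratios of 1.5, 0.72 and 1.47 there.

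Most members otherwise rose and fell together. The correlation of a gene with the median of the other members over the 15 fat arrays had a median of 0.935 (0.899 by rank), and was 0.975 after the genotype means were subtracted and 0.906 without the 4 high arrays. It exceeded 0.9 in 21 of the 36 genes, with the highest value, 0.994, for Ryr1. It was below 0.5 in 4: Myh7 (0.44), Tnnc1 (0.45), Tnni1 (0.47) and Tpm1 (-0.46). Its median was 0.934 over the fast genes, 0.503 over the slow genes and 0.969 over the shared genes. These points share arrays, so no test is attached. Of 24 further probes to the same genes, 7 had a correlation above 0.9 with the gene's first probe and 9 below 0.5. For Ttn, the giant spring protein with 11 probes, the highest ratio ran from 1.04 to 53.4 between probes.

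Beyond the list, 147 probes of other genes had a correlation above 0.9 with the median of the members, and 0 probes lay below -0.9. They represent 104 named genes. The 15 most alike were Nrap, Asb16, Pfkm, Cmya5, Klhl41, Eef1a2, Myom2, Rpl3l, Hrc, Adssl1, Tmem38a, Ckmt2, Smyd1, Txlnb and Tmod4, with correlations between 0.995 and 0.980 over the 15 arrays. Each of the 15 was highest in 569 replicate 3, with Ckmt2, the mitochondrial creatine kinase, reaching 100.4 and Cmya5 92.5.

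Other muscle genes were taken from lists that were not part of the 38. Of 28 other sarcomere genes 25 were measured, and their median log2 ratio was 2.25, 3.54, 3.14 and 1.44 in 569 replicates 1 and 3, Box1 replicate 3 and KO replicate 2, and between -0.40 and 0.33 in the other 11 arrays. None of the 25 was called in the 4 comparisons with WT in fat. In this list too the slow light chain Myl2 was highest in Box1 replicate 3, at 30.6 against 1.15 in 569 replicate 3 and 3.73 in 391 replicate 1, while the slow and cardiac light chain Myl3 was 19.4 and 11.7 there. Csrp3, a muscle LIM protein enriched in slow fibres, was 10.6 in Box1 replicate 3 and 2.21 in 569 replicate 3. Hspb7, like Acta1, was higher in every Box1 and KO array than in every WT array. Its ratios were 0.41, 0.50 and 0.45 in WT, and 1.05, 0.46 and 2.95 in 569. They were 0.76, 0.50 and 0.56 in 391, 7.31, 1 and 2.79 in Box1, and 3.55, 1.56 and 2.56 in KO. The largest SDs of the list were those of Tcap, Xirp2, Tmod4, Nrap and Klhl41, with highest ratios of 33.5, 95.1, 80.7, 46.9 and 56.2.

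Of 23 excitation and calcium genes 21 were measured, and so were all 16 muscle energy genes. In liver 1 gene of each list, Dmd and Adssl1, was called against WT for 391, Box1 and KO. Of all 19406 genes 618, 408 and 641 were called there. In fat 0 of either list were called against WT. The counts over all genes in fat were 0, 4, 1 and 0 for 569, 391, Box1 and KO. Of the 21 excitation and calcium genes, 7, 15, 9 and 4 exceeded a ratio of 2 in 569 replicates 1 and 3, Box1 replicate 3 and KO replicate 2, with list medians of 0.31, 1.71, 0.79 and 0.41. Of the 16 energy genes 8, 11, 11 and 8 did. Fabp3 and Cox7a1, which brown fat also makes, were 9.35 and 4.27 in 391 replicate 2, where Ucp1, the uncoupling protein of brown fat, was 13.9 and Ckm 1. The median log2 ratio over 9 brown fat cell markers, Ucp1 among them, was not raised there. It lay between -0.30 and 0.04 in the 391 arrays. Of 17 myogenic regulators 16 were measured and none was called. Myf6, the regulator kept by mature fibres, was 8.58 and 29.5 in 569 replicates 1 and 3, 7.08 in Box1 replicate 3 and 3.59 in KO replicate 2. The perinatal myosin Myh8 was 10.4, 38.6, 4.39 and 2.63 in the same arrays. Myod1, Myf5, Myog and Pax7, which mark myoblasts and satellite cells, stayed between 0.68 and 1.29.

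Among 8 heart muscle markers, Myh6, Nppa, Nppb, Myl7, Tnni3 and Mybpc3 stayed between 0.76 and 1.25 in all 15 fat arrays. Tnnt2, the cardiac tropomyosin-binding troponin subunit, was 1.68 in 569 replicate 3 and 1.77 in Box1 replicate 3, and between 0.93 and 1.23 elsewhere. Actc1, the cardiac actin, which developing skeletal fibres also make, was 96.6 in 569 replicate 3 and at most 2.41 elsewhere.

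Several marker lists of other cells in fat were lowest in 1 of the high arrays, 569 replicate 3. There the median log2 ratio of 12 white fat cell markers was -2.36, of 7 macrophage markers -2.32 and of 7 endothelial markers -1.60. The medians of the brown fat cell, tendon, nerve and red blood cell lists were also lowest there, at -0.34, -0.60, -1.34 and -1.74. Those of the lymphocyte, skin and liver cell lists were lowest in other arrays. In the other 14 arrays the fat cell median lay between -0.28 and 0.65. Adiponectin (Adipoq) was at 0.21 and Pparg at 0.07 of the median array in 569 replicate 3, while in 569 replicate 1, Box1 replicate 3 and KO replicate 2 Adipoq lay between 1 and 1.05. Slc2a4, the insulin-responsive glucose transporter of fat and muscle, was 3.08 in 569 replicate 3.

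Lymphocyte markers (9 of 10 measured) were low in all 4 high arrays, with medians of -2.47, -2.18, -2.56 and -2.25. They were also low in 569 replicate 2 (-2.25) and, somewhat less so, in KO replicate 3 (-1.89) and WT replicate 2 (-1.84), of which 569 replicate 2 had the lowest muscle median of all. In the other 8 arrays the lymphocyte median lay between 0.00 and 1.04. By genotype it ranged from -1.84 to 1.04 in WT, -2.47 to -2.18 in 569, 0.00 to 0.63 in 391, -2.56 to 0.75 in Box1 and -2.25 to 0.45 in KO. The correlation of this median with that of the members was -0.61 over 15 arrays. Ttr, a liver transcript, was 41.4 in Box1 replicate 2, an array low in muscle transcripts. The part of any of these in the muscle values was not tested.

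Liver served as the contrast tissue. In 14 of 15 liver arrays none of the 36 genes exceeded a ratio of 2 by its chosen probe, and the median over the members lay between -0.04 and 0.04. A second Tpm2 probe was 2.28 and 2.02 in Box1 replicates 1 and 2 and 3.37 and 2.44 in KO replicates 1 and 3. By the chosen probes the exception was 391 replicate 2, where 24 of 36 did and the median was 1.59. There Acta1 was 70.6, Tnni2 59.9, Atp2a1 46.0, Mylpf 14.1, Mb 10.2, Myh7 5.39 and Tnnc1 3.13, against values between 0.75 and 1.55 for these genes in the other livers. In liver the slow genes moved with the fast ones in that array, with medians of 1.54 and 2.35.

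In liver, 0 of 60 member probes were called for 391 against WT, where 1.91% of all probes were, and 0 for 569 (0.00858%), Box1 (1.32%) and KO (1.93%). At an unadjusted p under 0.05 the counts were 10, 1, 2 and 1 of 60, against 12.4%, 7.01%, 12.3% and 12.7% of all probes. The F test in liver also called 0, with 5.43% of all probes called. The lowest adjusted p, 0.0514, belonged to Myot in 391 against WT. The median over the members in 391 minus WT was 0.68, and 0.06 without replicate 2. All 3 arrays lay above WT for 9 of 36 genes in 391 (11 of 60 probes, 9.18% of all) and 5 of 36 in KO (6 of 60 probes, 10.6%). For 569 it was 3 of 60 probes (3.72%) and for Box1 4 of 60 (11.5%). All 3 arrays lay below WT for 2 of 60 probes in 569 (6.72%), 1 in 391 (5.28%), 1 in Box1 (4.87%) and 3 in KO (6.07%).

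The interaction contrasts, which test whether a mutant's difference from WT was unlike in the 2 tissues, called 0 of 60 member probes for each mutant. Of all probes 0% were called for 569, 0.227% for 391, 0.148% for Box1 and 0.341% for KO. At an unadjusted p under 0.05, 21 of 60 passed for 569, where 7.75% of all did, and 0, 1 and 1 for 391, Box1 and KO, where 7.17%, 5.56% and 8.52% did. The median over the members of the difference in fat minus that in liver was 3.50 in 569, 0.74 in 391, 1.70 in Box1 and 2.09 in KO.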

How the data were processed

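Total RNA of liver and subcutaneous fat was run on Illumina bead arrays, per the labels' protocols. The authors deposited a ratio per probe; from the values, each probe was divided by its median over the 15 arrays of a tissue (the median is exactly 1 for all 46643 probes in both tissues). The background treatment and the software were not given in the sources used here. Ratios were put on the log2 scale with no offset and fitted with limma 3.58.1 (R 4.3.3), 5 genotypes of a tissue in 1 fit and 30 arrays for the contrasts between tissues, two-sided, with Benjamini-Hochberg adjustment over all probes and a threshold of 0.05. The fit was tested on simulated data. Platform annotation names 1 gene for 32794 probes, several for 55 and none for 13794. A gene with several probes is represented by the one with the largest SD in the tissue. No probes were filtered. The number of arrays limits the precision.

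The members, lists and named genes (isoform pairs, Acta1, Ckm, Myh1, Atp2a1, Mb, the largest and smallest SD of each role, members with correlation below 0.5, the 15 most alike) were chosen with earlier results of these data known. Actc1, Fabp3, Cox7a1, Myl2, Myl3, Csrp3, Acta2 and the other markers were named after their values were seen. Promoters come from RefSeq (GRCm38.p6). Arrays of the same group shared 2.11% to 3.42% of their values exactly, so none was counted as a duplicate.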

Additional observations from a re-analysis of the deposited data

Results flagged for a closer look

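For 2 genes every fat array of a mutant lay on one side of WT and every liver array on the other. Myoz1 in KO minus WT was 3.39 on the log2 scale in fat and -0.18 in liver. The interaction contrast gave 3.57 ± 2.25 (limma adjusted p = 0.720), so the difference between tissues did not pass. Myoz2 in 569 minus WT was 1.54 in fat and -0.06 in liver, with an interaction of 1.60 ± 1.11 (adjusted p = 0.767), which did not pass either. In liver the highest 569 ratio of Myoz2 was 0.94 and the lowest WT ratio 0.95. Its second probe stayed at or below 1.14 in fat.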

How the results depend on the processing

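No paired analysis was possible because the labels give no replicate numbers. The planned identity of fast and slow isoform proteins was not run. Member probes called stayed at 0 in 118 of 121 alternative settings. The exceptions had 1 each: KO against WT with only the groups compared, 391 against 569 with all 30 arrays in 1 fit, and 569 against WT without 569 replicate 2, where Acta1 passed at 4.67. Counts over all probes moved more, and the cause was not tested. Quantile normalization gave 24 calls in 391 against WT, 41 in KO against WT, 41 in 391 against 569, 81 in KO against 391 and 32 for 391, Box1 and KO against WT and 569, and a member median of 2.02 in 391 against WT. Array weights, lowest for 569 replicate 3 (0.2272), gave 2 in Box1, 40 in KO, 28 in KO against 391 and 48 in the pooled contrast. All 30 arrays in 1 fit gave 1, 35, 23 and 122 for 569, 391, Box1 and KO against WT, 1117 in 391 against 569, 135 in KO against 391, 1 in KO against Box1 and 508 in the pooled contrast. Probes with an SD above the median gave 2 in Box1, 4 in KO against 391 and 14 pooled. Only the groups compared gave 0 in Box1, 75 in KO, 225 in 391 against 569, 123 in KO against 391 and 1 in KO against Box1.

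Without the 4 high fat arrays, chosen after seeing the data, calls were 14 in 391, 2 in Box1, 2 in KO, 2 in 391 against 569, 4 in KO against 391 and 1 in KO against Box1, and the member median was -0.22 in 569 against WT and 1.92 in 391 against 569. In 569 against WT the log2 difference turned to -0.11 for Acta1, -1.02 for Atp2a1, -0.056 for Myh4, -1.06 for Tnni2 and -0.21 for Mb. In Box1 against WT it turned to -0.73 for Atp2a1, -0.41 for Tnni2, -0.036 for Mb and -0.22 for Myh7, also without Box1 replicate 3 alone.

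With single arrays left out, calls over all probes ran from 0 to 6 in 569, 0 to 6 in 391, 0 to 2 in Box1, 0 to 1 in KO, 1 to 73 in 391 against 569, 0 to 12 in KO against 391 and 2 to 121 in the pooled contrast, and member probes called from 0 to 1 in 569. The difference in Box1 against WT then ran from -0.73 to 3.21 for Atp2a1, -0.41 to 3.15 for Tnni2, -0.036 to 2.49 for Mb and -0.22 to 2.18 for Myh7. The member median in 391 against WT ran from 1.26 to 1.90. Centring of arrays, robust empirical Bayes, the mean over probes and leaving out Tpm1, Tpm2 and Des moved no count past 1.5 times and no median beyond the spread between replicates.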
